A study of Mus musculus with 22 samples.

Results

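The 10 genes described here encode the main ligands and receptors of the vascular endothelial growth factor (VEGF) and angiopoietin systems: Vegfa, Vegfb, Vegfc, Pgf, Kdr, Flt1, Flt4, Angpt1, Angpt2 and Tek. They were chosen by symbol from the 52526 gene symbols of the expression files, and earlier results of these data were known when they were chosen. All 10 passed the filter for testing, which kept the 15138 genes that were above the lowest listed value in at least 5 mice. Values are CPM, the reads of a gene scaled to the total of its library, from sequencing of transcript 3′ ends, and every value under 1 CPM is listed as 1, called the floor below. In such libraries a transcript gives about 1 read whatever its length, so that CPM of different genes can be set beside each other.

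The RNA came from the whole dissected left 4th mammary tissue of 22 female C57BL/6J mice aged 7 to 8 weeks when used, into which EO771 cells, a mouse mammary cancer cell line carrying firefly luciferase, had been placed 24 hours earlier. Mice had a running wheel with its hub for 2 weeks before that, or the hub without a wheel as the control condition, and they received liposomes filled with PBS or with clodronate, an agent taken up by phagocytes that kills them, a day ahead of the cells and again together with them. The groups were 6 control mice and 6 wheel mice with PBS liposomes, and 5 control mice and 5 wheel mice with clodronate liposomes. All groups carried the cancer cells, so none shows the tissue without them. In bulk tissue, fewer cells of a type and less RNA per cell cannot be told apart, and reads of the engrafted cells and of the host are not separated.

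VEGF-A binds KDR (also called VEGFR-2), the receptor that carries most of its growth, survival and permeability signal in the endothelium of blood vessels. FLT1 (VEGFR-1) binds VEGF-A tightly but signals weakly, and it also binds VEGF-B and placental growth factor (PlGF, the product of Pgf), while VEGF-C acts on lymphatic vessels through FLT4 (VEGFR-3). Angiopoietin 1, made largely by cells around vessels, activates the endothelial receptor TEK (TIE2) and steadies mature vessels, whereas angiopoietin 2, made by endothelial cells, mostly counters it. In fat-rich tissue such as the mammary fat pad, adipocytes are a known source of VEGF-A.

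Promoter sequence was given by RefSeq (GRCm38.p6) for 8 of the 10 members, as 10 windows. The 250 bases before the start site are shown for Kdr, Flt1 and Vegfb, 3 members whose levels were correlated with each other over all 22 mice, though not past the adjusted threshold without the mice farthest from the median. Capitals mark ACGTG or GCGTG, the core letters of a hypoxia response element, read on either strand, so that a match on the other strand appears as CACGT or CACGC. The windows lie on the minus strand at chr5:75978456-75978705 for Kdr, chr5:147726012-147726261 for Flt1 and chr19:6987652-6987901 for Vegfb.
Kdr: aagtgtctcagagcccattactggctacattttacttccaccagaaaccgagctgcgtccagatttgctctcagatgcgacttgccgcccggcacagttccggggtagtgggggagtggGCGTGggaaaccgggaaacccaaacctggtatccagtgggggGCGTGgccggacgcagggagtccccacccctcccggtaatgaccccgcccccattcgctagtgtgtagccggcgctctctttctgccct
Flt1: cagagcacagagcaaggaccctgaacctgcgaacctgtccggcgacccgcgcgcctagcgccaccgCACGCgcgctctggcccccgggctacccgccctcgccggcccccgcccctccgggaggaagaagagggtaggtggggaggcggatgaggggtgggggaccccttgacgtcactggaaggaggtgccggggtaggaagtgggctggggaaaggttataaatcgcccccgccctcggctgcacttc
Vegfb: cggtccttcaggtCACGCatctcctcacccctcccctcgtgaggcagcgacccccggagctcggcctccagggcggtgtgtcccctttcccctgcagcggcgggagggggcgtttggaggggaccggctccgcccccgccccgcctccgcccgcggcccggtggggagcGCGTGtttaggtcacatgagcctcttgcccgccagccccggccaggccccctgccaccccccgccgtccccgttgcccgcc
Kdr had 2 matches, Flt1 had 1 and Vegfb had 2. Of the 32851 promoter windows of the same length in the table, 38.6% held at least 1 match, so that a match is common and is only a description of the letters. The second of the windows listed for Vegfa held 2 matches and the first none, the first Pgf window held 1, and the windows of Tek, Vegfc and Flt4 held none, which says only that these letters are not in those 250 bases. This second Vegfa window, at chr17:46025164-46025413, lies inside the annotated gene (chr17:46016993-46032369) and not before it. The Pgf windows and the Flt4 window also lie inside their annotated genes.

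Each mouse had between 13256467 and 20484578 reads (median 16293026), so that the floor of 1 CPM stood for at most 13 to 20 reads. No pair of libraries held identical values. In 5 mice a list of 10 lymphocyte markers (for example Ms4a1 and Cd79b, of B cells) had a mean log2(CPM + 1) of 4.29 to 5.69, against 1.00 to 1.39 in the other 17: control mouse 2 and wheel mouse 3 with PBS liposomes, and wheel mice 3, 4 and 5 with clodronate liposomes. These 5 mice stand apart from the rest, and 3 of them make up most of the wheel group with clodronate liposomes. The changes of members and gene lists that rest on that group are therefore given with and without these 5 mice, which leaves 2 wheel mice with clodronate liposomes. A list of 6 skeletal muscle markers also spanned 1.84 to 11.66 among the mice. The 10 macrophage markers were led by C1qa and C1qb, 2 complement genes, and averaged 4.54 and 4.45 in control and wheel mice with PBS liposomes and 4.19 and 4.23 with clodronate liposomes. In clodronate against PBS liposomes averaged over activity, 9 of these 10 markers had lower values (median -0.25). Of them, 2 had an unadjusted p under 0.05 in the limma fit described below, beside 10.4% of all genes. Without the 5 mice all 10 were lower (median -0.50), 4 at that threshold, beside 1898 of 15138 genes. None passed an adjusted p of 0.05 in either fit.

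The members fell into a group of abundant and a group of scarce transcripts. Over all 22 mice, Kdr had a mean of 83.6 ± 20.3 CPM (SD) and Vegfb 83.4 ± 20.4 CPM, followed by Flt1 at 68.0 ± 17.2 CPM and Vegfa at 49.6 ± 10.4 CPM. Angpt1 followed at 17.2 ± 7.81 CPM and Tek at 7.45 ± 2.83 CPM. Pgf (4.02 ± 2.25 CPM), Angpt2 (3.95 ± 2.00 CPM), Flt4 (3.71 ± 2.46 CPM) and Vegfc (1.84 ± 1.45 CPM) were near the floor, and Vegfc was at it in 11 mice.

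Not every step in this order was larger than the spread among mice. Kdr was above Vegfb in 12 of 22 mice, Pgf above Angpt2 in 13 and Angpt2 above Flt4 in 11, so these neighbours were not separated. Vegfb exceeded Flt1 in 20 of 22 mice, Flt1 exceeded Vegfa in 19, Tek exceeded Pgf in 17 and Flt4 exceeded Vegfc in 18. Vegfa exceeded Angpt1 in all 22 mice, and Angpt1 exceeded Tek in 21. Among other pairs of the family, Angpt2 was below Angpt1 in all 22 mice, with a log2 ratio between -3.96 and -0.36. Vegfa was above Vegfb in 1 mouse, and Flt1 was above Kdr in 5.

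The spread among mice was far larger than counting error for the abundant members. For Kdr, counting alone gives a coefficient of variation of 2.73%, and the observed one was 24.2%. For Vegfa the values were 3.56% and 21.1%, for Angpt1 5.98% and 45.4%, and for Tek 9.17% and 37.9%. For Vegfc counting alone gives 18.5% against an observed 78.8%, so its values carry both. The counting error covers the number of reads only.

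**Figure D1:**
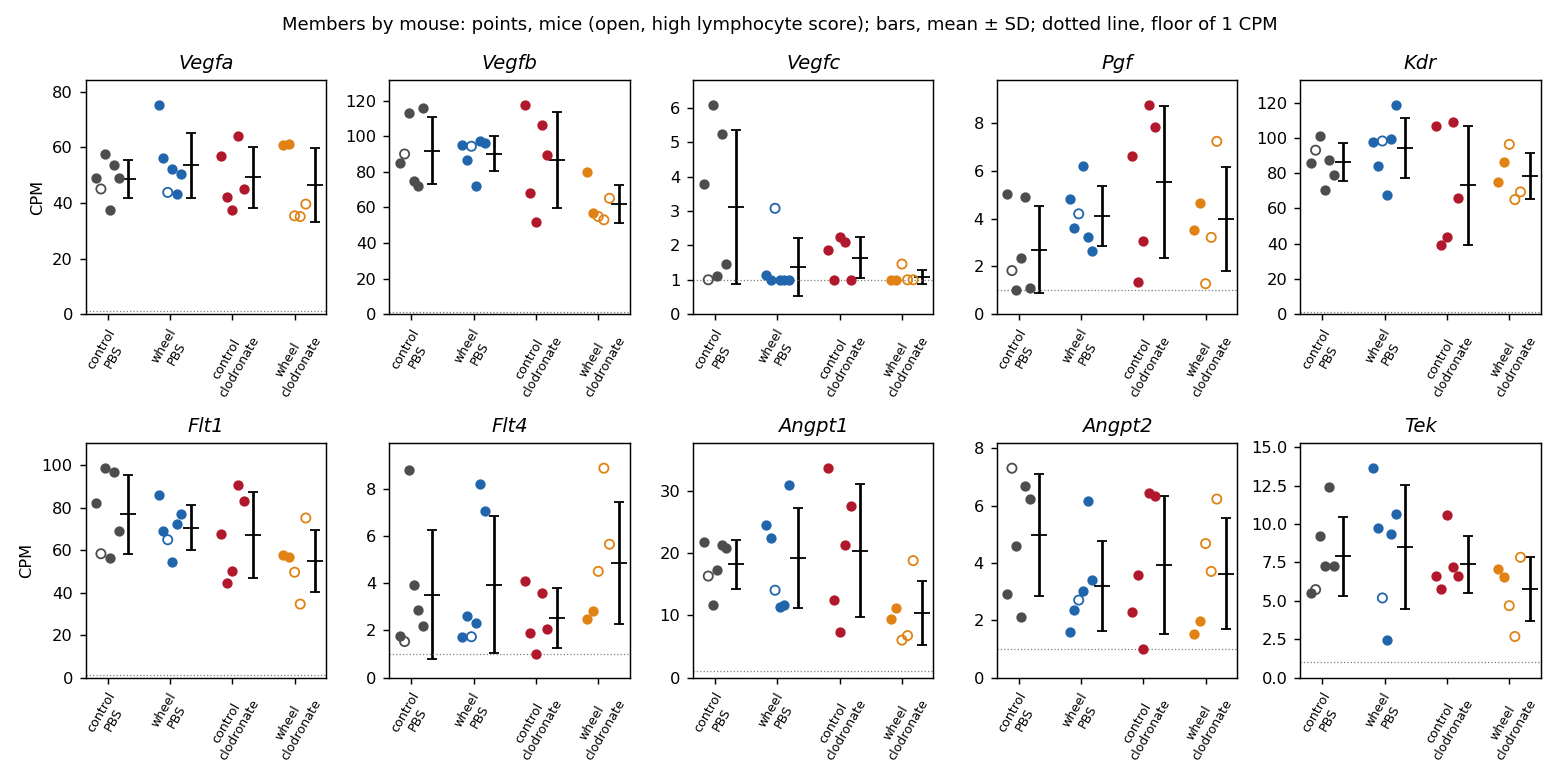
Level of each member in CPM (linear axis from 0) in every mouse, by group, with the group mean and its SD as bars. Open points are the 5 mice of high lymphocyte score and the dotted line is the floor of 1 CPM. The ranges of the groups overlap for each member in all 4 comparisons of a pair of groups, and Vegfb and Angpt1 had their lowest means, 61.9 and 10.4 CPM, in wheel mice with clodronate liposomes.

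The design sets wheel running against the control condition and clodronate against PBS liposomes, in all 4 combinations. Groups were compared on log2(CPM + 1) in a limma fit over all 15138 genes, in 7 comparisons: wheel against control mice with either liposome, clodronate against PBS liposomes in either activity group, both effects averaged over the other, and their interaction. Comparisons share groups, so they are not independent of each other. No member passed an adjusted p of 0.05 in any of the 7 comparisons, and the smallest adjusted p of a member was 0.244, for Vegfb in clodronate against PBS liposomes among wheel mice.

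Few genes of any kind passed that threshold. The share of all genes called was 0% for wheel against control with PBS liposomes, for clodronate against PBS liposomes in control mice, for wheel against control averaged over liposomes and for the interaction, with 744, 1058, 1224 and 1147 genes at an unadjusted p under 0.05. It was 0.00661% (1 gene) for wheel against control with clodronate liposomes, 0.00661% (1 gene) for clodronate against PBS liposomes in wheel mice and 0.205% (31 genes) for clodronate against PBS liposomes averaged over activity. A count of 0 of 10 members is what so small a background gives.

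At an unadjusted p under 0.05 the members' counts can be set against larger shares of all genes. With PBS liposomes, 1 of 10 members passed for wheel against control mice, with 4.91% of all genes. With clodronate liposomes, 2 of 10 members passed for the same contrast, with 10.4% of all genes. For clodronate against PBS liposomes, 0 of 10 passed in control mice (6.99% of all genes), 2 of 10 in wheel mice (11.6%) and 1 of 10 averaged over activity (10.4%). Wheel against control averaged over liposomes gave 1 of 10 (8.09%) and the interaction 0 of 10 (7.58%). With 10 members, none of these counts is far from the background.

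Most members had lower means in the wheel group with clodronate liposomes, in which 3 of 5 mice had high lymphocyte markers, and none passed the adjusted threshold. There, 8 of 10 members had lower means on the log2 scale than control mice with the same liposomes, with a median change of -0.29, while the median of all genes was 0.00. Without the 5 mice of high lymphocyte markers 7 of 10 were lower, with a median of -0.18 beside -0.04. Against wheel mice with PBS liposomes 8 of 10 were lower, with a median of -0.24 beside 0.00 for all genes, and without those mice 8 of 10, with a median of -0.27 beside -0.08. Of all genes, 49.3% were lower against these control mice and 49.9% against these wheel mice. Without the mice of high lymphocyte markers the shares were 55.8% and 58.9%. The wheel mice with clodronate liposomes had 57.2% to 58.5% of reads assigned to genes. Control mice with the same liposomes had 58.7% to 63.0%, and wheel mice with PBS liposomes 58.3% to 63.7%. CPM is scaled to all reads, so a lower share lowers the CPM of genes in general. With scaling to assigned reads the median of all genes was 0.06 in both comparisons. The part of this share in the members' values was not tested. With PBS liposomes, wheel against control gave 5 higher and 5 lower, with a median of 0.00 beside -0.08, while 63.8% of all genes were lower. The change with clodronate in control mice was lower for 7 of 10, with a median of -0.16 beside -0.10. There 65.4% of all genes were lower, so that this count is not far from the background.

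**Figure D2:**
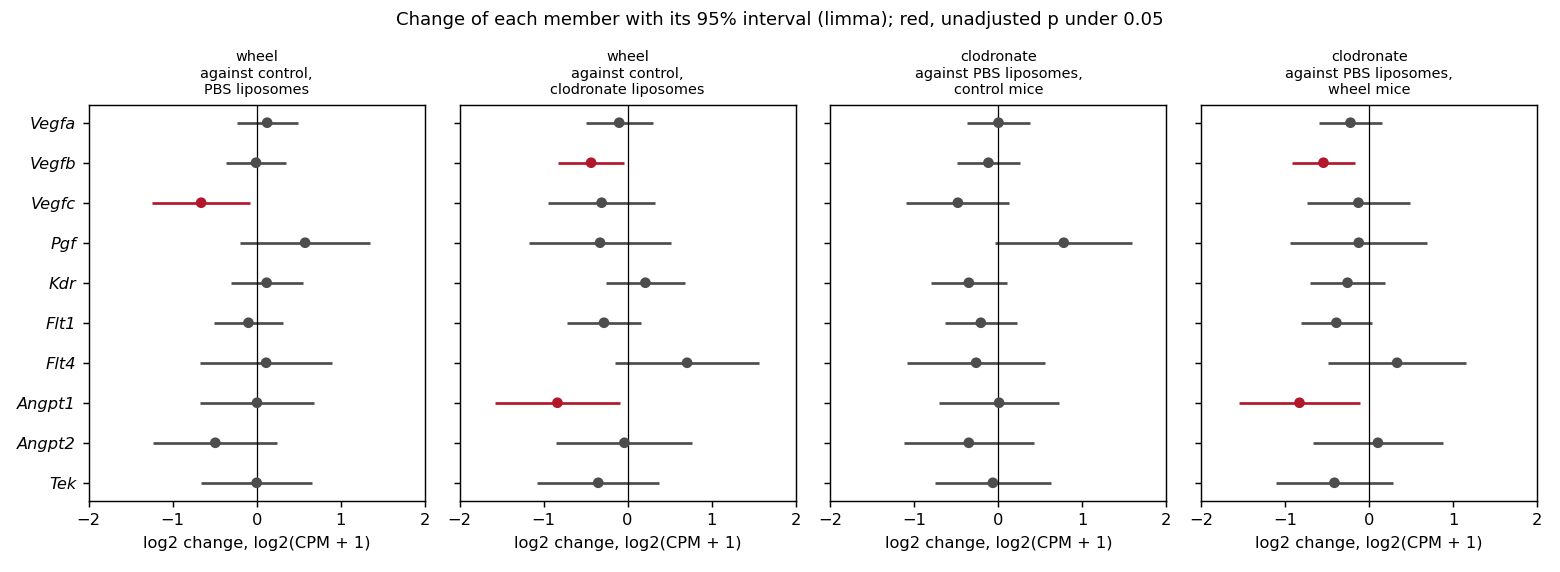
Change of each member on the log2(CPM + 1) scale with its 95% interval from limma, in the 4 comparisons of a pair of groups. Positive values are higher in wheel mice (left pair of panels) or with clodronate liposomes (right pair), and red marks an unadjusted p under 0.05. Vegfc in the first panel, and Vegfb and Angpt1 in the second and the last, are the red points, and all have an adjusted p of at least 0.244.

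Of the ligands, Vegfa, the principal driver of blood vessel growth, stayed close to its overall mean in each group. It spanned 37.5 to 57.4 CPM (median 48.9) in control mice and 43.3 to 75.3 CPM (median 51.4) in wheel mice with PBS liposomes. With clodronate liposomes the control mice had 57.0, 42.2, 37.5, 64.1 and 45.0 CPM and the wheel mice 60.8, 61.1, 35.4, 35.1 and 39.6 CPM. The 3 lowest of the wheel mice were the 3 with high lymphocyte markers, and all 4 groups overlapped. The change with the wheel was 0.12 (SE 0.18, adjusted p = 0.991 in limma) with PBS liposomes and -0.10 (SE 0.19, adjusted p = 0.906) with clodronate liposomes. The 95% interval of the first reached from -0.24 to 0.49, and that of the second from -0.50 to 0.30. Without the mice of high lymphocyte markers the sign of the second turned, to 0.33 (95% interval from -0.14 to 0.81), and the change with clodronate in wheel mice went from -0.22 to 0.16.

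Vegfb, a ligand of FLT1 linked to fatty acid handling in vessels of muscle and fat, had the smallest p of the members. In wheel mice with clodronate liposomes it was at 79.6, 56.9, 54.9, 53.0 and 65.1 CPM, whereas wheel mice with PBS liposomes spanned 71.9 to 97.5 CPM (median 94.7). Only 1 of the 5 clodronate mice, mouse 1, was within the range of the PBS mice. The difference was -0.54 on the log2 scale (SE 0.18), with an unadjusted limma p of 0.00640, an adjusted p of 0.244 and an exact two-sided permutation p of 0.00649.

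Against control mice with clodronate liposomes, which had 118, 68.2, 51.5, 107 and 89.4 CPM, the difference was -0.43 (SE 0.19, limma p = 0.0317, adjusted p = 0.402, exact permutation p = 0.111). The control values spread from below the lowest to above the highest wheel value. Control mice with PBS liposomes had 72.1 to 116 CPM (median 87.5), and wheel running under PBS liposomes gave -0.01 (SE 0.17). Averaged over activity, clodronate against PBS liposomes gave -0.33 (SE 0.13, adjusted p = 0.337 in limma, permutation p = 0.0273). The difference between the wheel effects under the 2 liposomes was -0.43 (SE 0.26, adjusted p = 0.720), which is not past its threshold.

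Without the 5 mice of high lymphocyte markers the Vegfb values were smaller and none had an unadjusted p under 0.05. For clodronate against PBS liposomes the change became -0.39 in wheel mice and -0.26 averaged over activity, and for wheel against control with clodronate liposomes it became -0.30. The interaction became -0.27. Leaving out 1 mouse at a time, the difference between liposomes in wheel mice stayed below an unadjusted p of 0.05 in every fit, while the wheel contrast lost it without control mouse 1, 4 or 5 or wheel mouse 2, 3 or 4 of the clodronate groups.

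Vegfc, the lymphatic ligand, was at or near the floor. Control mice with PBS liposomes had 3.80, 1, 6.09, 1.11, 5.24 and 1.45 CPM, and wheel mice with PBS liposomes 1.15, 1, 3.08, 1, 1 and 1 CPM. The 3 highest values of the whole set were thus in control mice with PBS liposomes, but the ranges overlapped. With clodronate liposomes the control mice had 1.86, 1, 2.23, 2.10 and 1 CPM and 4 of the 5 wheel mice were at the floor. The wheel change was -0.66 (SE 0.28) with PBS liposomes, with an unadjusted limma p of 0.0280, an adjusted p of 0.987 and an exact permutation p of 0.0844. Averaged over liposomes it was -0.48 (SE 0.21, adjusted p = 0.600 in limma, permutation p = 0.0290).

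A value at the floor can stand for anything from 0 to 20 reads, so that these Vegfc changes depend on the pseudocount of 1, as the range of -0.31 to -0.96 for the PBS comparison with other pseudocounts shows. Without the mice of high lymphocyte markers the change with PBS liposomes was -0.999, still at an unadjusted p under 0.05. It lost its unadjusted p without control mouse 1, 3 or 5 or without wheel mouse 2, 4, 5 or 6, and averaged over liposomes without control mouse 3 or 5 with PBS liposomes or control mouse 3 or 4 with clodronate liposomes.

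Pgf, the other FLT1 ligand, ranged from 1 to 8.78 CPM. Its largest change was 0.78 (SE 0.39, adjusted p = 0.720 in limma, exact permutation p = 0.128), from 2.70 CPM in control mice with PBS liposomes to 5.53 CPM with clodronate liposomes. The latter held 6.64, 1.34, 3.07, 8.78 and 7.85 CPM, of which 3 were above and 2 within the former's range of 1 to 5.04 CPM (median 2.08). Wheel mice had 4.12 CPM with PBS and 3.98 CPM with clodronate liposomes, a change of -0.12 (SE 0.39). The interaction was -0.90 (SE 0.56, adjusted p = 0.724). The last 2 values were 0.03 and -0.70 without the mice of high lymphocyte markers.

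Of the receptors, Kdr varied most among control mice with clodronate liposomes, at 107, 39.3, 43.7, 109 and 65.9 CPM. Control mice with PBS liposomes had 70.3 to 101 CPM (median 86.7) and wheel mice 67.9 to 119 CPM (median 98.1). With clodronate liposomes wheel mice had 74.8, 86.4, 96.3, 65.0 and 69.4 CPM. The 2 lowest values, in control mice 2 and 3 with clodronate liposomes, lay below every other mouse, and these mice also had a high skeletal muscle score (11.66 and 8.32) and the lowest adipocyte scores of their group, 9.17 and 9.32. Wheel mouse 2 with clodronate liposomes had a muscle score of 10.46 beside 86.4 CPM of Kdr, and the part of these markers in the values of Kdr was not tested. The change of Kdr averaged over activity was -0.31 (SE 0.15, adjusted p = 0.499 in limma, permutation p = 0.0708), and the wheel changes were 0.12 (SE 0.21) with PBS and 0.21 (SE 0.23) with clodronate liposomes. Without the mice of high lymphocyte markers the averaged change was -0.26 and the wheel change with clodronate liposomes 0.26.

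Flt1 had its highest mean in control mice with PBS liposomes, at 76.9 ± 18.6 CPM, and its lowest in wheel mice with clodronate liposomes, at 54.8 ± 14.7 CPM. The former spanned 56.3 to 98.7 CPM (median 75.5), and the latter were at 57.8, 56.7, 49.6, 34.6 and 75.2 CPM. Wheel mice with PBS liposomes spanned 54.6 to 86.0 CPM (median 70.8) and control mice with clodronate liposomes had 67.8, 44.4, 50.0, 90.6 and 83.4 CPM. The groups overlapped throughout. Averaged over activity the change with clodronate was -0.30 (SE 0.15, adjusted p = 0.484 in limma, permutation p = 0.0590), and in wheel mice it was -0.39 (SE 0.21, adjusted p = 0.479, exact permutation p = 0.0606). These changes were -0.29 and -0.31 without the mice of high lymphocyte markers.

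Flt4, the lymphatic VEGF-C receptor, was scarce at 1 to 8.87 CPM. Its largest change was 0.71 (SE 0.42, adjusted p = 0.605 in limma, exact permutation p = 0.0952), for wheel mice (2.48, 2.81, 4.50, 8.87 and 5.65 CPM) against control mice with clodronate liposomes (4.10, 1.89, 1, 3.58 and 2.04 CPM). The 3 highest of these wheel mice were the 3 with high lymphocyte markers, and without the 5 mice of high lymphocyte markers the change was 0.13 (95% interval from -0.998 to 1.26). The change with clodronate in wheel mice went from 0.33 to -0.38 in the same way. With PBS liposomes the change with the wheel was 0.11 (SE 0.38).

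Angpt1, the agonist of TEK, had the largest difference of the 10 members in both comparisons of the wheel mice with clodronate liposomes. These mice had 9.37, 11.1, 6.02, 6.74 and 18.8 CPM, a mean of 10.4 CPM. Control mice with the same liposomes had 33.7, 12.4, 7.25, 21.3 and 27.5 CPM, and the difference was -0.83 (SE 0.36, limma p = 0.0300, adjusted p = 0.397, exact permutation p = 0.111). Wheel mice with PBS liposomes spanned 11.4 to 31.0 CPM (median 18.2), and the difference from them was -0.83 (SE 0.35, limma p = 0.0247, adjusted p = 0.351, exact permutation p = 0.0411). In that comparison 4 of the 5 clodronate mice lay below every PBS mouse, and the fifth, mouse 5, was inside their range.

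Control mice with PBS liposomes had 11.7 to 21.7 CPM of Angpt1 (median 19.1). The difference was 0.00 (SE 0.33) for the wheel with PBS liposomes and 0.01 (SE 0.35) for clodronate in control mice. The interaction was -0.84 (SE 0.49, adjusted p = 0.714). Without the mice of high lymphocyte markers it was -0.80, and the differences were -0.76 from control mice and -0.82 from PBS liposomes, both at an unadjusted p above 0.05 with 2 wheel mice with clodronate liposomes left. The wheel contrast also lost its unadjusted p without control mouse 1, 4 or 5 or wheel mouse 3 or 4 of the clodronate groups, and the liposome contrast without wheel mouse 1 or 6 with PBS or wheel mouse 3 or 4 with clodronate liposomes.

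Angpt2, the antagonist, ranged from 1 to 7.31 CPM, and its group means ran from 3.20 CPM in wheel mice to 4.97 CPM in control mice with PBS liposomes. That difference was -0.49 (SE 0.36, adjusted p = 0.987 in limma, exact permutation p = 0.152). With clodronate liposomes the wheel change was -0.04, and without the mice of high lymphocyte markers it was -0.68 (95% interval from -1.75 to 0.38). The 3′ end of Angpt2, at chr8:18690263-18741562 on the minus strand of GRCm38, lies within Mcph1 on the plus strand, and whether reads were counted by strand is not given in the sources used here, so reads of these genes may be mixed. Angpt1 overlaps Gm17473 on the other strand, but not at its 3′ end. Tek, the receptor, ranged from 2.45 to 13.6 CPM, with means of 7.89 and 8.50 CPM in control and wheel mice with PBS liposomes and 7.37 and 5.76 CPM with clodronate liposomes. Its largest change was -0.41 (SE 0.34, adjusted p = 0.691 in limma, exact permutation p = 0.320), for clodronate in wheel mice, and -0.24 without the mice of high lymphocyte markers.

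Markers of other cell types differed along with the lower Vegfb and Angpt1 of wheel mice with clodronate liposomes. The 9 adipocyte markers, which include Cfd and Fabp4, had a mean log2(CPM + 1) of 9.26 to 9.85 there against 9.63 to 10.50 in wheel mice with PBS liposomes, and all 9 were lower (median change -0.45), 4 of them at an unadjusted p under 0.05. The 3 lowest of these adipocyte scores, 9.26, 9.28 and 9.44, were in the mice of high lymphocyte markers, and the other 2 mice had 9.61 and 9.85. The 8 pericyte and smooth muscle markers, led by Acta2 and Rgs5, had scores of 4.67 to 5.08 against 5.00 to 5.56, and all 8 were lower (median -0.32), 2 at an unadjusted p under 0.05. All 7 fibroblast markers, led by Dcn and Col1a2, were lower, with scores of 6.63 to 7.10 against 6.81 to 7.64 (median -0.42), 2 at that threshold. The 10 lymphocyte markers were all higher, with scores of 1.00 to 5.69 against 1.02 to 4.66 (median 2.00), each at an unadjusted p under 0.05. None of these genes passed an adjusted p of 0.05, and the part of these markers in the members' values was not tested. Of all genes, 11.6% had an unadjusted p under 0.05 in this comparison and 49.9% were lower. The counts of 2 of 8 and 2 of 7 are thus not far from the background. The 12 blood endothelial markers, led by Pecam1 and Esam, differed less in the same comparison, with 5 higher and 7 lower and a median of -0.09. All 6 skeletal muscle markers were higher (median 1.95), with scores of 2.23 to 10.46 against 1.84 to 5.33, and 8 of 10 macrophage markers were lower (median -0.19), none of either list at an unadjusted p under 0.05.

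Without the 5 mice of high lymphocyte markers, the medians of the same comparison were -0.24 for adipocyte, -0.48 for pericyte and smooth muscle, -0.50 for fibroblast, -0.73 for macrophage, -0.25 for blood endothelial and 4.81 for skeletal muscle markers. The median of all genes was -0.08, and 2 wheel mice with clodronate liposomes were left. At an unadjusted p under 0.05 in limma, 4 of 6 skeletal muscle markers were then higher, and 3 of 10 macrophage and 2 of 7 fibroblast markers lower. Of all 15138 genes, 1341 were past that threshold in this fit. None of the adipocyte, pericyte and smooth muscle, or blood endothelial markers was past that threshold. Against control mice with clodronate liposomes, the wheel mice of that group had medians of -0.19 for adipocyte, -0.15 for pericyte and smooth muscle, -0.13 for fibroblast, 0.08 for macrophage, -1.23 for skeletal muscle and 2.48 for lymphocyte markers. Without the 5 mice these were 0.10, -0.30, -0.21, -0.42, 1.45 and -0.01, with the same 2 wheel mice left. The medians of adipocyte, macrophage and skeletal muscle markers thus turned in sign. The 5 mice were set apart by their lymphocyte score, so the fall of the lymphocyte median follows from leaving them out.

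The partners of the members are the coreceptors neuropilin 1 and 2 (Nrp1, Nrp2), the ligand Vegfd, the orphan receptor Tie1, the phosphatase Ptprb that acts on TEK, the matrix protein gene Svep1 and the ligand gene Angpt4. Nrp1 was more abundant than any member at 128 ± 30.8 CPM, and Ptprb was at 83.3 ± 30.9 CPM. Nrp2 had 29.7 ± 11.8 CPM, Vegfd 28.5 ± 9.26 CPM, Svep1 14.7 ± 5.59 CPM and Tie1 13.8 ± 5.02 CPM, while Angpt4 was at the floor in all 22 mice. The lymphatic ligand Vegfd was thus listed at a higher mean level than Vegfc.

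None of the 6 partners tested passed an adjusted p of 0.05 in the 7 comparisons. At an unadjusted p under 0.05, Ptprb was lower with clodronate in wheel mice (log2 change -0.66, SE 0.28, adjusted p = 0.357 in limma), and Vegfd was lower in wheel mice averaged over liposomes (-0.47, SE 0.21, adjusted p = 0.600). The change of Vegfc in the latter comparison was -0.48. Without the mice of high lymphocyte markers these values were -0.54 for Ptprb, -0.10 for Vegfd and -0.68 for Vegfc.

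Genes that VEGF signaling is known to induce in endothelium gave no adjusted call either. Of the 8 tested, led by Nos3 (endothelial nitric oxide synthase) and Rcan1 (a calcineurin regulator), 7 were lower in wheel than in control mice with PBS liposomes, with a median of -0.31 beside -0.08 for all genes, and 0 had an unadjusted p under 0.05. Of all genes, 63.8% were lower in that comparison, and 62.2% without the mice of high lymphocyte markers. Without the mice of high lymphocyte markers 5 were lower and 3 higher in that comparison, with a median of -0.13 beside -0.08. With clodronate liposomes 5 were higher and 3 lower (median 0.03), or 0.25 without the mice of high lymphocyte markers, and 1 was higher and 1 lower at an unadjusted p under 0.05, Kcne3 (0.52) and Apln (-1.17). Without those mice 0 were higher and 1 lower at that threshold, so Kcne3 was no longer past it. With all mice, 10.4% of all genes were past it in this comparison and with clodronate averaged over activity. With clodronate averaged over activity 2 were lower at that threshold, Nos3 (-0.52, SE 0.23, adjusted p = 0.414 in limma) and Dll4 (-0.68, SE 0.28, adjusted p = 0.381). Without those mice their changes were -0.543 and -1.002. Kcne3, Apln and Dll4 were named after their values were seen. Esm1, a tip cell gene of this list, was at the floor in every mouse of 3 of the 4 groups.

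Targets of the hypoxia-inducible factors, which also drive Vegfa, were read from 11 tested genes led by Ldha (lactate dehydrogenase) and Bnip3 (a mitophagy receptor). With PBS liposomes 5 were higher and 6 lower in wheel than in control mice, with a median of 0.00 beside -0.08 for all genes, and with clodronate liposomes 4 were higher and 7 lower (median -0.03), or 6 and 5 without the mice of high lymphocyte markers (median 0.08). None passed an adjusted p of 0.05. At an unadjusted p under 0.05, Bnip3 was lower in the wheel mice with clodronate liposomes (-0.59, or -0.17 without those mice). Without those mice, 2 of the 11 genes were lower at that threshold in the same comparison and 0 higher. Of all 15138 genes, 961 were past it in that fit. With all mice 10.4% of all genes were, in this comparison and with clodronate averaged over activity. With clodronate averaged over activity 2 were lower at that threshold, Ldha (-0.41, SE 0.17, adjusted p = 0.399 in limma) and Adm (-0.84, SE 0.31, adjusted p = 0.308), at -0.26 and -1.17 without those mice. Adm was named after its values were seen. Across the 22 mice, Vegfa and the score of this list had r = -0.19 and rho = -0.28 (permutation p = 0.407 and 0.209, adjusted p = 0.688 and 0.448), and in the 17 mice of low lymphocyte markers r = -0.37 (permutation p = 0.141, adjusted p = 0.344).

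Among the 45 pairs of members, 7 had levels that went together across the 22 mice at an adjusted p under 0.05 by a two-sided permutation test of Pearson's r, and 4 did by Spearman's rho. Vegfb and Angpt1 had r = 0.68 and rho = 0.61 (permutation p = 0.00057 and 0.00298, adjusted p = 0.00990 and 0.0335). Flt1 and Angpt1 had r = 0.67 and rho = 0.65 (permutation p = 0.00058 and 0.00119, adjusted p = 0.00990 and 0.0268), and Vegfb and Flt1 had r = 0.67 and rho = 0.62 (permutation p = 0.00066 and 0.00230, adjusted p = 0.00990 and 0.0335). Kdr was among them too, with Vegfb (r = 0.59, rho = 0.70, adjusted permutation p = 0.0311 and 0.0230) and with Flt1 (r = 0.57, rho = 0.55, adjusted permutation p = 0.0344 and 0.0597). The remaining pairs were Flt1 with Tek (r = 0.63) and Vegfa with Flt1 (r = 0.58).

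These relations were less firm than the counts imply. Without the 2 mice farthest from the median of the first gene none of the 45 passed the adjusted threshold, and r fell to 0.55 for Vegfb and Angpt1 (permutation p = 0.0120, adjusted p = 0.168) and to 0.43 for Kdr and Flt1 (permutation p = 0.0538, adjusted p = 0.199). For Flt1 and Angpt1 it was 0.61 (permutation p = 0.0044, adjusted p = 0.124). The mice left out differ with the first gene, and 20 remained. Leaving out wheel mouse 4 with clodronate liposomes alone also left 0 pairs, and leaving out control mouse 3 with PBS liposomes, or control mouse 3 or 4 with clodronate liposomes, left 4. Within the 17 mice of low lymphocyte markers 1 pair passed, Kdr and Flt1, at r = 0.73 (permutation p = 0.00052, adjusted p = 0.0234). With each group centred on its mean 5 passed. Angpt1 and Angpt2 had r = 0.18 (permutation p = 0.413), and Kdr and Tek, both endothelial receptors, had r = 0.22 (permutation p = 0.328).

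**Figure D3:**
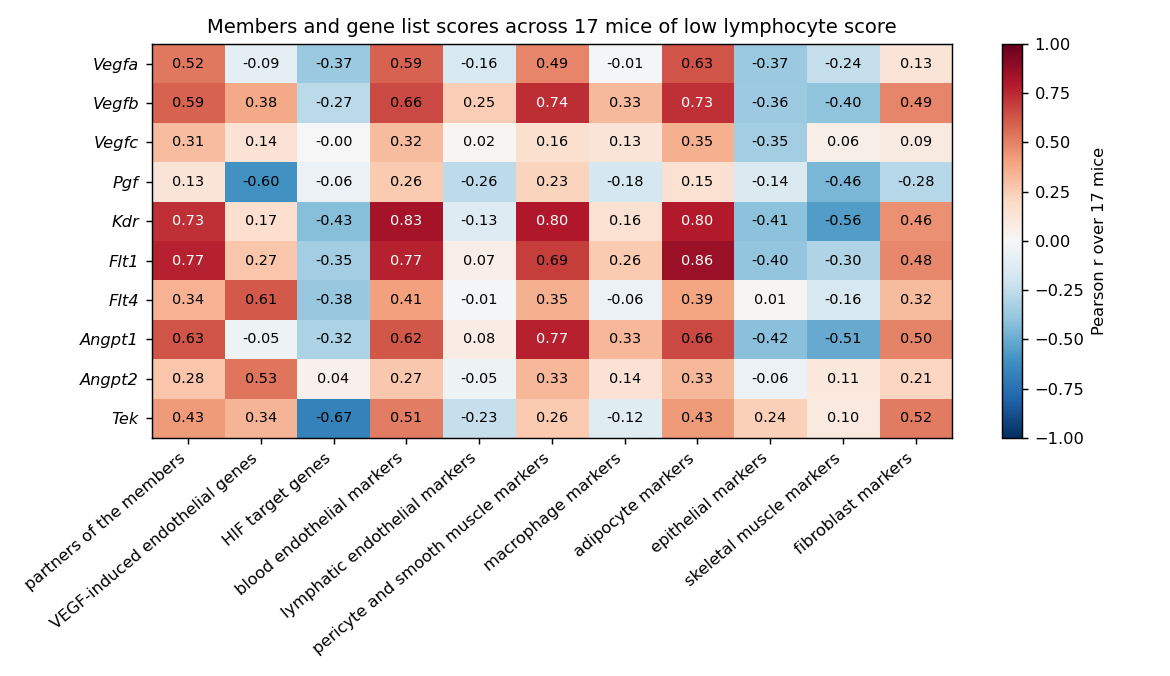
Pearson r between each member and the mean log2(CPM + 1) of each gene list over the 17 mice of low lymphocyte markers, from -1 (blue) to 1 (red). Kdr, Flt1, Vegfb and Angpt1 have the reddest cells, in the columns of blood endothelial, pericyte and smooth muscle, and adipocyte markers, with 0.86 for Flt1 and adipocyte markers.

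Set against the mean levels of the 12 gene lists, 23 of 120 pairs of a member and a list passed the adjusted threshold over 22 mice, 16 within the 17 mice, 9 without the 2 farthest mice and 15 without wheel mouse 4 with clodronate liposomes. Because the lymphocyte score fell into separate clusters of mice, relations with it are not given. Flt1 went with adipocyte markers (r = 0.83, rho = 0.83, permutation p = 2e-05 and 1e-05, the latter the smallest that 100000 resamples can give, adjusted p = 0.00060 and 0.00120). Without the 2 farthest mice its r was 0.79 (adjusted permutation p = 0.00360), and in the 17 mice it was 0.86.

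Angpt1 went with pericyte and smooth muscle markers (r = 0.79, rho = 0.79, permutation p = 1e-05 and 2e-05, adjusted p = 0.00060 and 0.00120), at 0.77 without the 2 farthest mice and 0.77 in the 17 mice. Kdr went with blood endothelial markers (r = 0.75, rho = 0.67, permutation p = 2e-05 and 0.00091, adjusted p = 0.00060 and 0.00940), at 0.83 in the 17 mice. Without the 2 farthest mice its r was 0.60 and its adjusted permutation p 0.0544. Vegfb (r = 0.78, rho = 0.78, adjusted permutation p = 0.00072 and 0.00120) and Vegfa (r = 0.75, rho = 0.73, adjusted permutation p = 0.00189 and 0.00624) went with adipocyte markers as well. Flt4 and lymphatic endothelial markers, led by Lyve1 and Pdpn, had r = 0.12 (permutation p = 0.608), and Kdr and macrophage markers had r = 0.11 (permutation p = 0.610). All values of a mouse come from 1 library, so a gene and a list share its depth and its mix of cells.

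**Figure D4:**
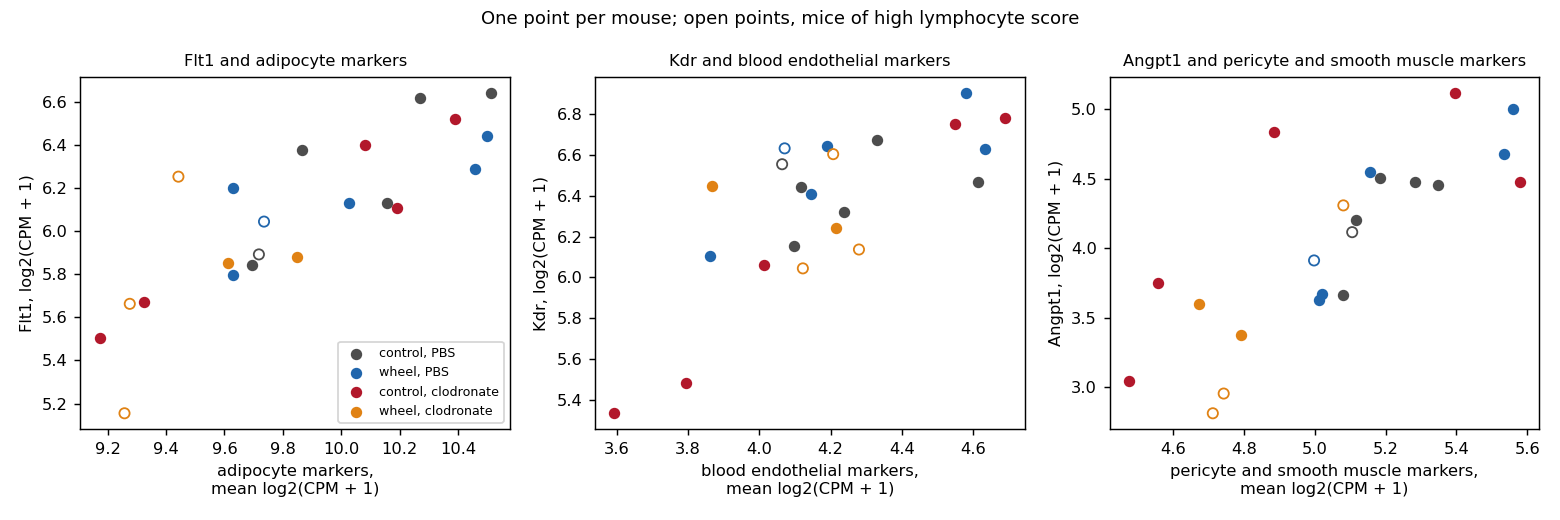
Level of Flt1, Kdr and Angpt1 in each mouse on the log2(CPM + 1) scale against the mean log2(CPM + 1) of adipocyte, blood endothelial, and pericyte and smooth muscle markers, with 1 point per mouse, colours for the groups and open points for mice of high lymphocyte score. The points rise from left to right in each panel (r = 0.83, 0.75 and 0.79), and the 2 lowest points of the Kdr panel are control mice with clodronate liposomes.

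The genes whose levels were most like those of each member across the 22 mice were named by the highest r among all tested genes, as a description. For Flt1 they were Igf1 (r = 0.91), Cd36 (0.84) and Ptprb (0.84), the last of them a partner of the family. For Kdr they were Sod1, Irs3 and Acp5 (0.82, 0.82 and 0.81), for Vegfb Sdha, Mecr and Aplp2 (0.83, 0.82 and 0.82), for Vegfa Pmepa1 and Trf (0.85 and 0.82), and for Angpt1 C1qtnf9, Col4a2 and mt-Nd2 (0.82, 0.81 and 0.81). Tek was most like Secisbp2l and A530020G20Rik (0.79 and 0.78). For the scarce members the likeness was lower, with Kit (0.72), Naaladl2 and Tbc1d32 for Pgf and Arl8a (0.74), Camkk2 and Uhrf2 for Angpt2, except for Flt4 with Ighmbp2 (0.84), Ctla2a and 2810414N06Rik, and for Vegfc with AC117608.1 (r = 0.80, rho = 0.52), C130012C08Rik (0.80 and 0.80) and Gm37914 (0.76 and 0.74). Vegfc was at the floor in 11 mice and these 3 genes averaged 1.13 to 1.33 CPM, near the floor too.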

How the data were processed

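RNA of 22 mouse mammary tissues was measured by 3′ end sequencing. Per mouse, the authors deposited a gene-level signal in CPM, in which no value is under 1. The submitters' processing notes name STAR 2.5.3a and GRCm38, and the counting tool is not given in the sources used here. All values above the floor were whole multiples of 1 read within 0.1 read, but reads at the floor are lost, which left no count table to test. The 4 rows naming no gene (35.4% to 42.6% of reads, part of the CPM total) were left out, leaving 57.2% to 64.5% assigned to genes. For 106 repeated symbols the row with the highest mean was kept, and 94.5% of symbols were in GENCODE M21.

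Genes with 5 or more mice above the floor were fitted as log2(CPM + 1) with limma 3.58.1 (R 4.3.3) on 4 group means with a variance trend, with Benjamini-Hochberg adjustment over 15138 genes. A fold change on this scale understates the change of low genes. Single members were also tested by two-sided permutation over mice, exact between a pair of groups and with 100000 random permutations within strata for averaged effects, and correlations by 100000 permutations (Python 3.11.15, numpy 2.4.6, pandas 2.3.3). A list's score is the mean of log2(CPM + 1) over its genes. A high lymphocyte score is one above 3. The lists and members were chosen with earlier results of these data known, so no list is independent support.

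Groups and replicate numbers came from the sample labels. All 10 members are named, all partners of the members, the 2 most abundant genes of each other list where none passed the adjusted threshold, and the 3 genes of highest r for each member, of which 1 each for Vegfa and Tek is not reported here. Esm1, Apln, Kcne3, Dll4, Adm and the genes at the floor were named after their values were seen. Alternatives were other pseudocounts, filters, scalings, no variance trend, a replicate block, fits with only the groups compared, leaving out each mouse, and leaving out the 5 mice of high lymphocyte score. The fit was tested on simulated data with known answers. Intervals cover 95%, and counting error covers read number only.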

Additional observations from a re-analysis of the deposited data

Results flagged for a closer look

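In each of the 4 groups and for each of the 10 members, the highest and the lowest mouse were compared with their neighbours by Dixon's test, on the log2(CPM + 1) scale. Of the 40 sets of values tested, 2 passed the limit, and chance gives about 2. Both concern Vegfc, the scarcest member. Among wheel mice with PBS liposomes, mouse 3 had 2.03 (3.08 CPM), while the next mouse had 1.15 CPM and 4 were at the floor of 1 CPM. Among wheel mice with clodronate liposomes, mouse 3 had 1.30 (1.46 CPM), while the other 4 were at the floor. Both mice are among the 5 with high lymphocyte markers. In both groups 4 mice are tied at the floor, which fixes most or all of the gap. The 2 values stand for 41 and 24 reads, and a value at the floor for at most 13 to 17 reads in the first group and 14 to 18 in the second, so the distance from the others is not known. The 3 highest Vegfc values of the whole set were in mice of low lymphocyte markers.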

How the results depend on the processing

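No member passed an adjusted p of 0.05 under any alternative, the smallest being 0.238, or 0.120 with 1 mouse left out. For the 7 member changes with an unadjusted p under 0.05, 67 of 80 alternatives gave the same side of that threshold and 13 lost it, none with the other direction. Leaving out 1 mouse, 128 of 154 fits gave the same and 26 lost it. Over all 70 member changes, the sign differed in 23 of 712 alternatives and 58 of 1540 fits without 1 mouse.

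Counts of all genes called moved more. For wheel against control with clodronate liposomes (1 gene) they were 0 with genes averaging 5 CPM or more, 3 with no filter (every gene above the floor in any mouse), 0 in a fit of just those 2 groups and 12 without the mice of high lymphocyte markers. For clodronate against PBS liposomes in wheel mice (1 gene) they were 3 with a pseudocount of 5, 4 with no filter, 0 with genes averaging 5 CPM or more, 3 with upper-quartile scaling, 2 with scaling to assigned reads, 2 without a variance trend, 0 in a fit of just those 2 groups and 14 without those mice. For clodronate averaged over activity (31 genes) they were 54 with genes averaging 5 CPM or more, 12 with upper-quartile scaling, 15 with assigned reads, 20 without a trend, and 0 without those mice (1898 at an unadjusted p under 0.05). With no filter the wheel averaged over liposomes and the interaction each gave 2. Leaving out 1 mouse, the counts ran from 0 to 236 for wheel against control with clodronate liposomes (236 and 118 without wheel mice 2 and 1), 0 to 38 for clodronate in control mice (38 without control mouse 1 with clodronate liposomes), 0 to 51 for clodronate in wheel mice (51 and 28 without wheel mice 2 and 1 with clodronate liposomes) and 9 to 146 averaged over activity (9 and 146 without control mice 3 and 1 with clodronate liposomes), and stayed at 0 for the other 3 comparisons. The cause was not tested.

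Of 45 member pairs, 7 were called, against 0 without the 2 farthest mice, 1 without the mice of high lymphocyte markers and 0 to 8 leaving out 1 mouse. Of 120 pairs of a member and a list, 23 were called, against 9 without the 2 farthest and 15 to 26 leaving out 1 mouse.

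The labels give groups the same replicate numbers, and no clear pairing of mice by these numbers was seen. The mean correlation of same-numbered mice was between -0.08 and 0.18, and no comparison had every pair above 0.1. Such correlations also carry differences in the mix of cells between mice, so they cannot exclude a pairing. With the number as a replicate block, 0 genes were called for wheel against control with clodronate liposomes, 0 for clodronate in wheel mice and 11 averaged over activity, and no member.

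Values at the floor stand for at most 13 to 20 reads, which limits Vegfc most. The groups of 5 or 6 mice limit the rest: the 95% intervals of single comparisons reach from -1.58 to 1.59 on the log2 scale.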
